A study of Mus musculus with 7 samples.

Results

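The transcripts described here come from 49 genes of the G2 and M phases of the cell cycle. They encode the kinases and phosphatases of mitotic entry, the chromosomal passenger complex, the spindle assembly checkpoint, the kinetochore, the spindle, condensin with other chromosome proteins, the anaphase-promoting complex with separase, and the cytokinesis machinery. The members were listed by function, with cyclins left aside and with *Cenpe* as the 1 kinesin. All 49 were found among the 21928 genes of the deposited tables, and all 49 reached a length-scaled abundance (TPM) of 1 or more in 3 or more libraries, as did 13630 genes in all.

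Bulk RNA-seq was performed on testes enriched for preleptotene spermatocytes, the germ cells that are about to begin meiosis, from 4 wild-type and 3 *Meioc*-null pups, with 1 library per pup. MEIOC is a germ-cell protein that acts on mRNA together with YTHDC2, a helicase, and RBM46, and the comparison asks which transcripts depend on it as mitosis gives way to meiosis. The null pups carried the null allele *Meioc* tm1.1Dpc, backcrossed to C57BL/6N, which is also the strain of the wild types. All 7 pups received the retinoic acid synthesis blocker WIN 18,446 at 0.1 mg per gram of body weight daily from postnatal day 2 to 8, then retinoic acid at 0.0125 mg per gram on day 9, and were collected 6.75 days after that injection. Each library was made from 1.5 whole testes, somatic cells included, after depletion of ribosomal RNA. A small testis biopsy of each pup was set aside for histology, which was not analysed here. The authors report that staging was verified by histology before the RNA-seq analysis. The libraries held 12537852 to 20552702 estimated counts, and values are given as CPM, counts scaled to library size by TMM, in the order wild-type replicates 1 to 4 and then *Meioc*-null replicates 1 to 3. *Meioc* itself was counted at 468, 660.2, 664 and 720.0 CPM (wild type) as against 400.3, 299.6 and 413 CPM (null) (log2 0.76, SE 0.16, edgeR adjusted p = 0.0207). The null allele thus still gave counts over this gene, and the gene sums do not show which exons they came from.

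In a dividing cell, CDK1 and its partner kinases drive entry into mitosis, condensin and topoisomerase II fold and untangle the chromosomes, and kinetochores attach them to the spindle. The checkpoint kinases hold the anaphase-promoting complex in check until every chromosome is attached, after which separase cuts cohesin and the cytokinesis proteins split the cell. Spermatogonia pass through this cycle repeatedly before the last mitosis gives rise to preleptotene spermatocytes, which replicate their DNA and then enter a long meiotic prophase. Many genes of this set are transcribed late in the cell cycle from promoters with a CCAAT box, bound by NF-Y, and a CHR element, bound by the MuvB complex.

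Of the 49 transcripts, 11 were more abundant in wild-type than in *Meioc*-null testes and 2 were less abundant (edgeR, adjusted p under 0.05 over 13630 genes). These are 22.4% and 4.08% of the set, against 7.77% of all tested genes called higher and 3.33% called lower. The remaining 36 were not called. At an unadjusted p under 0.05, 18 members had higher and 5 had lower wild-type values, against 17.4% and 12.9% of all tested genes (30.3% in either direction). The median log2 fold change of wild type over null was 0.11 over the members and -0.0065 over all tested genes, and 27 members had positive and 22 negative values. Every wild-type library lay above every null library for 10 members and below for 5, against 15.4% and 10.8% of all tested genes. In bulk testis, fewer cells of a type and less RNA per cell cannot be told apart.

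**Figure D1:**
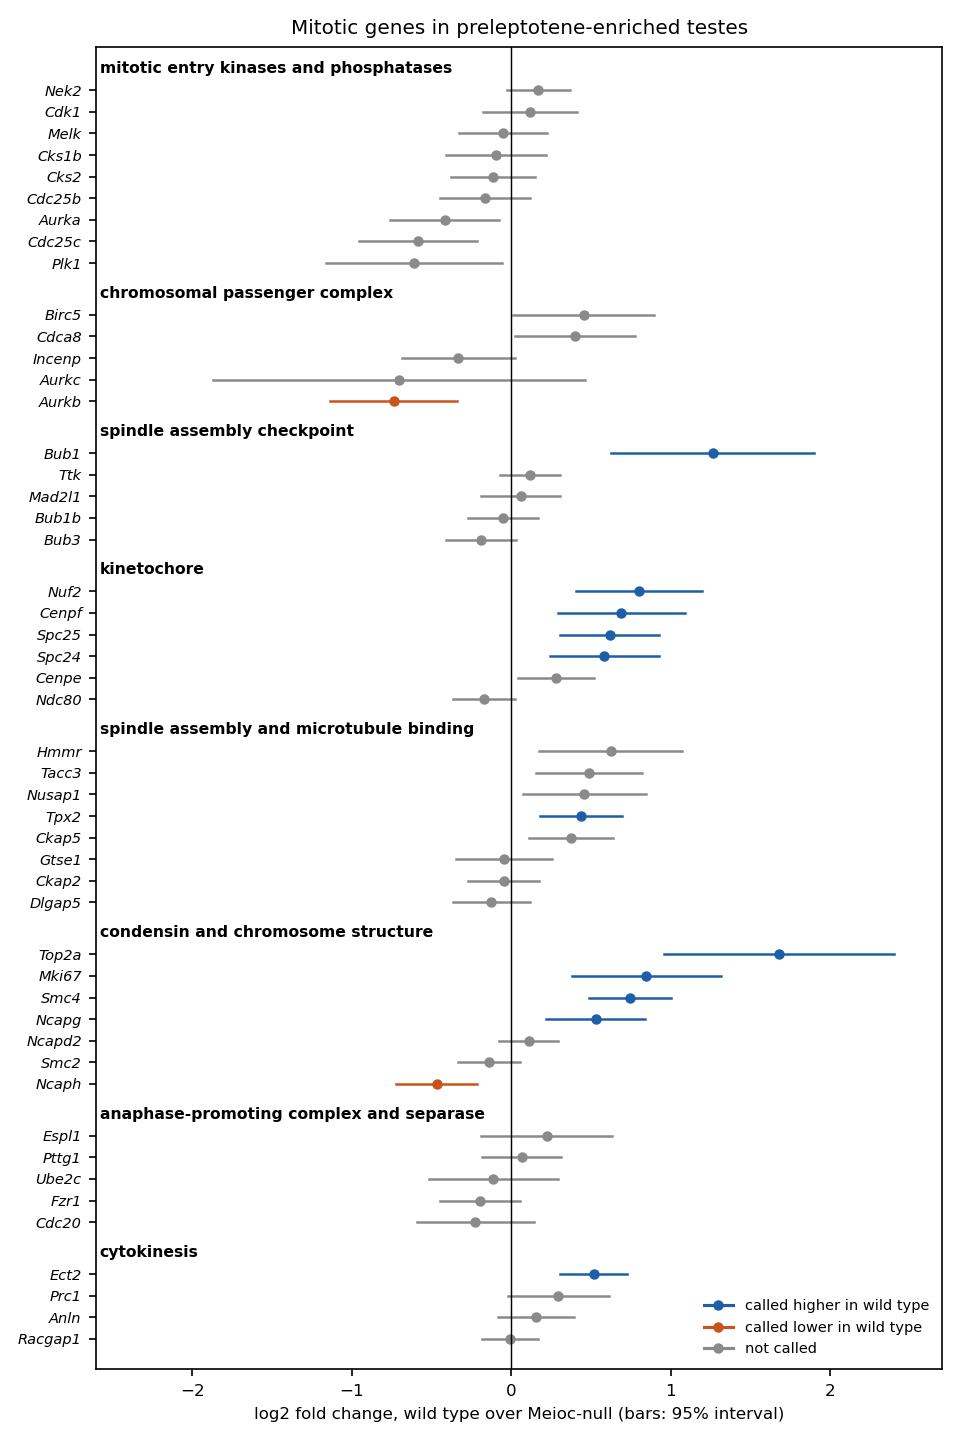
Log2 fold change of each of the 49 members in wild-type over *Meioc*-null testes, from the edgeR fit (points) with 95% intervals (bars), grouped by function and ordered by value within each group. The 11 members called higher in wild type, in blue, include 8 of the kinetochore and condensin groups, and the 2 called lower, in orange, are *Aurkb* and *Ncaph*.

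The calls depended on which library was left out. Without wild-type replicate 1, 18 members were called higher and 4 lower, against 10.6% and 5.37% of all tested genes. The 9 members added were *Birc5*, *Cdca8*, *Ckap5*, *Hmmr*, *Nusap1*, *Prc1* and *Tacc3*, called higher, and *Cdc20* and *Cdc25c*, called lower. Leaving out wild-type replicate 2 gave 1 higher and 0 lower, against 1.86% and 0.308% of all tested genes (2.17% in either direction). The same counts, 1 and 0, resulted without wild-type replicate 3 (1.74% and 0.279%, 2.02% in all), without null replicate 2 (2.17% and 0.418%, 2.59% in all) and without null replicate 3 (0.829% and 0.132%, 0.961% in all). The 1 member called in each of these fits was *Smc4*. Leaving out wild-type replicate 4 gave 3 higher and 1 lower, against 2.67% and 0.836% (3.51% in all), and leaving out null replicate 1 gave 8 and 2, against 9.35% and 6.14% (15.5% in all). The 12 called members other than *Smc4* were each called in 1 to 3 of the 7 fits with 1 library left out, and all 13 kept their direction in each. DESeq2 on all 7 libraries called 14 higher and 3 lower, which included all 13 of the edgeR calls, against 10.7% and 6.42% of all tested genes (17.1% in either direction, and 11.1% in edgeR).

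The calls also depended on the scale. On log2(TPM + 1), the median of all tested genes moved to -0.23 and that of the members to -0.13, and limma called 2 members higher and 8 lower, against 2.65% and 12% of all genes. Of the 13 edgeR calls, *Top2a* and *Smc4* were still called higher and *Aurkb* and *Ncaph* lower. With each library centred on its own median, an alternative chosen after seeing the data, the members' median was 0.084 and that of all genes -0.017, and limma called 3 higher and 3 lower, against 3.46% and 1.61% of all genes. The 3 called higher on that scale were *Top2a*, *Smc4* and *Ect2*. Members with longer transcripts had larger values (Spearman correlation of transcript length with log2 fold change 0.40 over the 49 members and -0.21 over all 13630 genes, as a description). Removing the length trend of each library, likewise chosen after seeing the data, gave 12 higher and 3 lower, against 9.19% and 4.23% of all genes.

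RefSeq promoter windows of 300 bases, from 250 before to 50 after the transcription start on GRCm38.p6, were held for 42 of the 49 members; *Cdc25c*, *Aurkb*, *Incenp*, *Spc24*, *Tpx2*, *Dlgap5* and *Smc4* had no entry. Where a member had more than 1 window, the one nearest the start of its most-counted transcript was used. For all genes past the TPM filter it was the first listed. The CCAAT motif was found on either strand in 32 of 42 windows (76.2%), against 39.5% of the 10637 windows of genes past the TPM filter. The CHR motif TTTGAA was found in 26 of 42 (61.9%), against 12.1%, and both together in 24 of 42 (57.1%), against 5.24%. TTCCCGC, 1 form of the E2F motif, was found in 1 of 42 (2.38%), the window of *Ncapg*, against 8.48%. Other forms of the E2F motif were not searched, so these counts do not cover all E2F sites. None of these motifs contains another. Among the 8 called-higher members with a window, 7 held CCAAT and 6 held TTTGAA, and among the 33 members not called, 25 and 20 did. CCAAT and TTTGAA were thus each found in most members of either kind. The windows of *Nuf2*, called higher, *Ncaph*, called lower, and *Birc5*, *Mad2l1*, *Melk*, *Nusap1*, *Pttg1* and *Tacc3*, not called, held none of the motifs. For *Tacc3* and *Mad2l1* the window's start site lay 458 and 247 bases from that of the most-counted transcript. Motifs near the latter could thus be missed. A match is a stretch of letters and not a measured binding site.

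The 150 bases before the start are shown for the 3 called-higher members with the largest fold changes, *Top2a*, *Bub1* and *Mki67*, for *Ect2*, for *Cdc20*, which was not called, and for *Ncaph*, which was called lower and whose window held none of the motifs. Each is written 5′ to 3′ on the strand of the gene, and capitals mark the CCAAT and TTTGAA motifs on either strand, so that ATTGG and TTCAAA also appear.
Top2a (chr11:99024190-99024339, minus strand): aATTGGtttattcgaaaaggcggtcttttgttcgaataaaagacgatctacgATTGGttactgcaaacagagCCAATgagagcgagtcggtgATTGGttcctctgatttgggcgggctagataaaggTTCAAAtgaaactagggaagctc
Bub1 (chr2:127831860-127832009, minus strand): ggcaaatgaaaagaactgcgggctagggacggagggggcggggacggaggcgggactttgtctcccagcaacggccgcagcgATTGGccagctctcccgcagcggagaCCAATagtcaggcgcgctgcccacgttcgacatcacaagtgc
Mki67 (chr7:135716380-135716529, minus strand): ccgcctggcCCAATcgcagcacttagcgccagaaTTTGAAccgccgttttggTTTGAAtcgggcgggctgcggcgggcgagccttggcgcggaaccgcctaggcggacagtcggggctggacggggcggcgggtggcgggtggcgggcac
Ect2 (chr3:27153879-27154028, minus strand): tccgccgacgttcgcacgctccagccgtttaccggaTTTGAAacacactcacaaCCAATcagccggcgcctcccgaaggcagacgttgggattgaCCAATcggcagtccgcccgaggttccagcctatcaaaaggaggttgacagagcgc
Cdc20 (chr4:118437344-118437493, minus strand): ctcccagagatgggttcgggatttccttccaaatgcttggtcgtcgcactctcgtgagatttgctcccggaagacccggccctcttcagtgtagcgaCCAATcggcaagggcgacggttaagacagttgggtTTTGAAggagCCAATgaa
Ncaph (chr2:127133955-127134104, minus strand): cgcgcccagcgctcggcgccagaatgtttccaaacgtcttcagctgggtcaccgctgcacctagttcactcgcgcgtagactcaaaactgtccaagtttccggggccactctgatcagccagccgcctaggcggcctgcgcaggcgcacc
The *Top2a* stretch held 4 CCAAT boxes and 1 CHR, and *Cdc20*, with 2 and 1, had the same 2 motifs as *Ect2* in the same numbers.

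Of the 7 transcripts of condensin and chromosome structure, 4 were called higher and 1 lower, against 7.77% and 3.33% of all tested genes. Their median log2 fold change was 0.53, and they included the largest difference of the set. *Top2a* encodes the topoisomerase that untangles sister DNA molecules. It was counted at 393, 1033, 1096 and 1129 CPM in the wild types, whereas the null libraries held 342, 231 and 282 CPM (chr11:98992943-99024189). Every wild-type library was above every null library, but wild-type replicate 1 lay close to null replicate 1. The difference was 3.20-fold (log2 1.68, SE 0.32, edgeR adjusted p = 0.0175), the largest of the 49. *Mki67*, which encodes the mitotic chromosome coat protein Ki-67, was counted at 232, 410.3, 433 and 478 CPM against 229.6, 196 and 222 CPM (chr7:135689784-135716361). The groups were separated by a narrow margin, again through wild-type replicate 1, and the fold was 1.798 (log2 0.85, SE 0.21, edgeR adjusted p = 0.0325).

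Within condensin, the subunits went different ways. The complex is a ring of the ATPases SMC2 and SMC4, closed by the kleisin NCAPH, with NCAPG and NCAPD2 bound to it. *Smc4* was counted at 452, 563, 505 and 496 CPM in wild-type testes compared with 319, 248.9 and 333 CPM in null testes (chr3:69004738-69034623). Its wild-type libraries all lay above the null ones, with a fold of 1.68 (log2 0.75, SE 0.12, edgeR adjusted p = 0.0104). It was the only member still called without any 1 of the 7 libraries, with adjusted p from 0.0036 to 0.0373. *Ncapg* was counted at 87.3, 127, 114 and 125 CPM against 81.5, 67.2 and 86.3 CPM (chr5:45669919-45700546), with wild-type replicate 1 just above null replicate 3 (log2 0.53, SE 0.14, edgeR adjusted p = 0.0406).

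*Ncaph* went the other way, with 20.9, 19.7, 20.3 and 15.9 CPM in the wild-type libraries and 25.9, 27.4 and 26.1 CPM in the null ones (chr2:127103809-127133954). All wild-type libraries, replicate 1 included, were below all null libraries (log2 -0.47, SE 0.11, edgeR adjusted p = 0.0316). The other subunits, *Smc2* and *Ncapd2*, were not called, at -0.14 and 0.11 on the log2 scale.

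Ratios of TPM between partner subunits do not move with the scaling between libraries. They were chosen after the values were seen and are given without a test. The ratio of *Smc4* to *Smc2* was 5.33 to 6.52 in the 4 wild-type libraries and 3.03 to 3.48 in the 3 null libraries. The ratio of *Ncapg* to *Ncaph* was 4.70 to 8.83 in wild type and 2.80 to 3.85 in the null. In neither ratio did the groups overlap. Per length, *Smc4* was the most abundant of the 49 members (335.6 ± 17.0 TPM in wild type, SD, n = 4; 241 ± 18.9 TPM in the null, SD, n = 3) and *Ncaph* the least abundant condensin subunit (11.4 ± 1.78 and 18.4 ± 2.06 TPM).

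**Figure D2:**
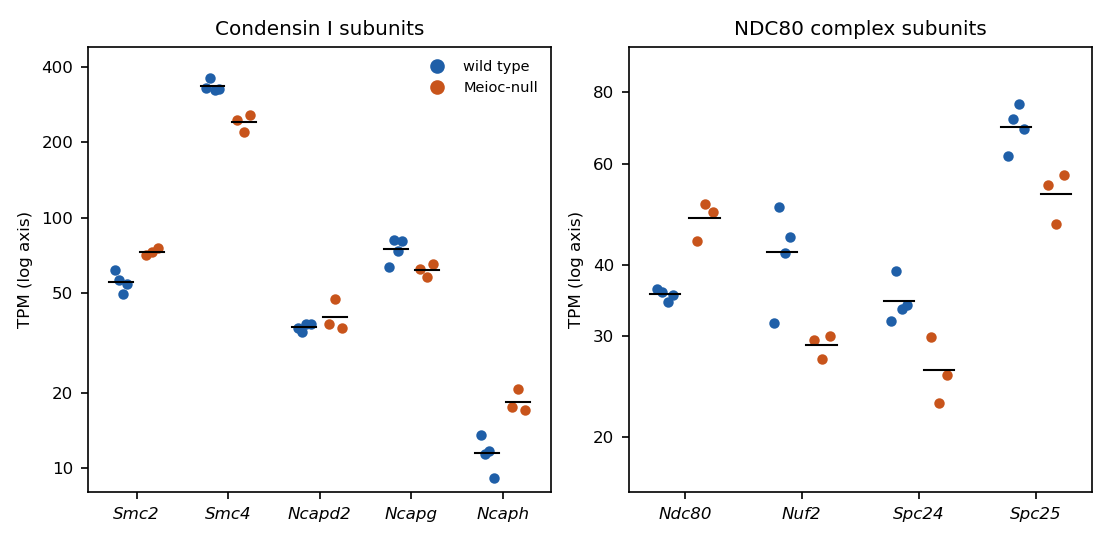
TPM (log axis) of the condensin I subunits (left) and of the NDC80 complex subunits (right) in each wild-type (blue) and *Meioc*-null (orange) library, with lines at the group means. *Smc4* was at 324.8 to 361 TPM in wild type and 219.8 to 256 TPM in the null, while *Smc2* was at 49.8 to 61.9 and 70.8 to 75.9 TPM; on this scale the median of all genes was lower in wild type by 0.23 (log2).

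Of the 6 kinetochore transcripts, 4 were called higher in wild type and none lower, against 7.77% and 3.33% of all tested genes. Their median log2 fold change was 0.60. The NDC80 complex is the rod that grips microtubules, with NDC80 and NUF2 at its outer end and SPC24 and SPC25 at its inner end. *Nuf2* was counted at 25.8, 45.8, 37.8 and 39.9 CPM in the wild-type libraries, and at 22.5, 18.8 and 22.9 CPM in the null ones (chr1:169497934-169531464). Wild-type replicate 1 lay nearer to the null libraries than to its own group (log2 0.80, SE 0.18, edgeR adjusted p = 0.0234).

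*Spc25* was counted at 34.4, 44.1, 45.9 and 42.8 CPM against 28.9, 22.0 and 30.7 CPM (chr2:69193895-69206194; log2 0.62, SE 0.14, edgeR adjusted p = 0.0248). *Spc24* was counted at 24.3, 34.7, 27.7 and 28.7 CPM against 22.0, 15.5 and 20.2 CPM (chr9:21755442-21760303; log2 0.58, SE 0.15, edgeR adjusted p = 0.0397). Both pairs of groups were separate, with wild-type replicate 1 the lowest of its group. *Ndc80* was not called and had the lowest value of the group (log2 -0.17, SE 0.086, edgeR adjusted p = 0.214), although its wild-type libraries, at 31.1 to 35.2 CPM, all lay below the null ones, at 36.0 to 40.4 CPM. Part of its sequence is shared with other genes: 17.2% of its 31-base words also occur in their transcripts. The TPM ratio of *Nuf2* to *Ndc80*, chosen after the values were seen, was 0.871 to 1.41 in wild type and 0.536 to 0.671 in the null.

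*Cenpf*, which encodes a large protein of the outer kinetochore made in G2, was counted at 301, 503, 515 and 537 CPM (wild type) as against 264, 303 and 295 CPM (null) (chr1:189640606-189688086). Wild-type replicate 1 lay within the null range, so the groups overlapped, and the difference was called (log2 0.69, SE 0.18, edgeR adjusted p = 0.0375). *Cenpe*, the kinetochore motor, was not called, at 0.28 on the log2 scale.

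Of the 5 checkpoint transcripts, *Bub1* alone was called, higher in wild type, against 7.77% of all tested genes called higher and 3.33% lower. BUB1 is the kinase that marks centromeric chromatin and recruits other checkpoint proteins to kinetochores. It was counted at 115, 237, 277 and 324 CPM in the wild types, whereas the null libraries held 107, 89.8 and 101 CPM (chr2:127801122-127831865). Replicate 1 was barely above the highest null library, while the other wild types were more than 2-fold above it. The overall difference was 2.40-fold (log2 1.26, SE 0.28, edgeR adjusted p = 0.0243). The other checkpoint genes, *Ttk*, *Mad2l1*, *Bub1b* and *Bub3*, lay between -0.19 and 0.12 on the log2 scale. *Bub3*, the WD-repeat partner of BUB1, was the lowest (log2 -0.19, SE 0.097, edgeR adjusted p = 0.222). The TPM ratio of *Bub1* to its paralog *Bub1b*, chosen after the values were seen, was 3.37 to 7.46 in wild type and 2.21 to 3.00 in the null.

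**Figure D3:**
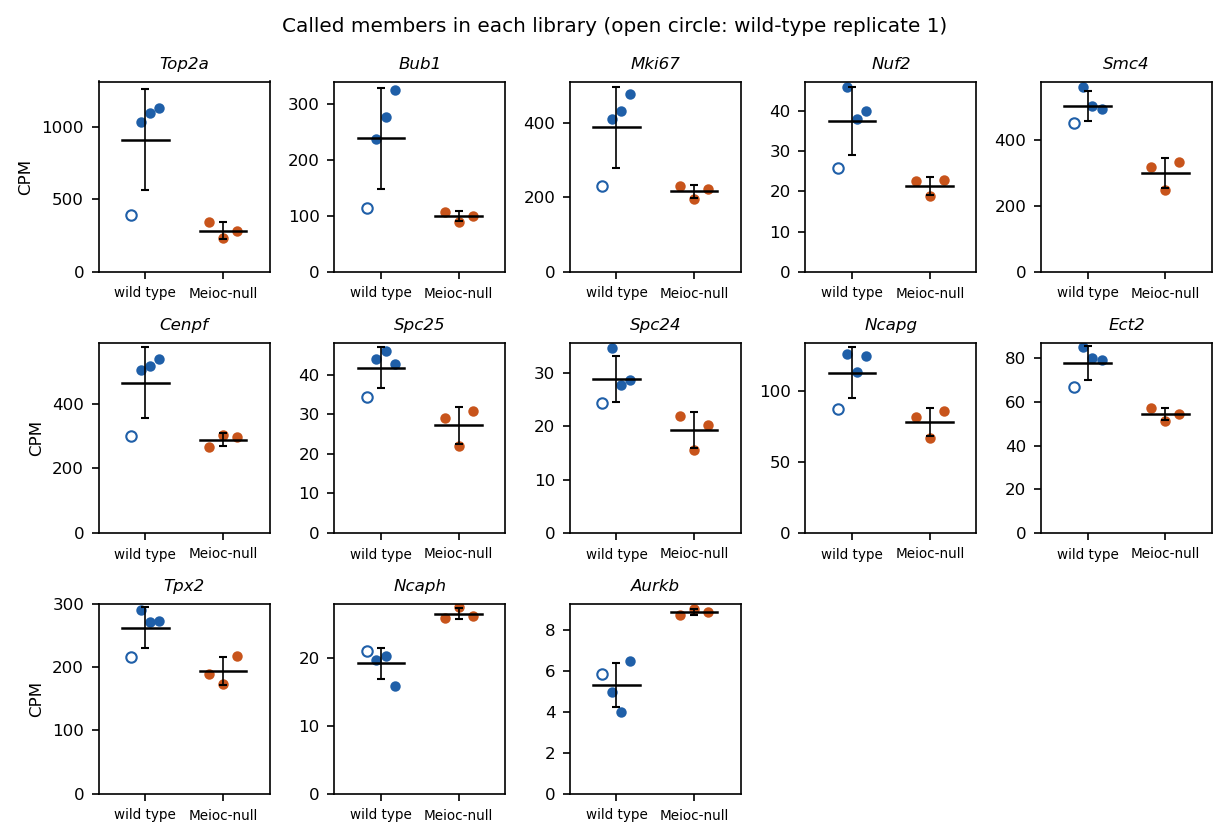
CPM of the 13 called members in each library, with wild type in blue and *Meioc*-null in orange, lines at the group mean and bars for 1 SD. The open circle is wild-type replicate 1, which for *Top2a*, *Bub1*, *Mki67* and *Cenpf* sits beside the null libraries and for *Smc4*, *Ncaph* and *Aurkb* sits with its own group.

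Of the 8 spindle transcripts, *Tpx2* was called higher in wild type and 7 were not called. Over all tested genes, 7.77% were called higher and 3.33% lower. The median log2 fold change of the 8 was 0.41. *Tpx2*, which encodes the spindle assembly factor that activates Aurora A, was counted at 216, 289, 270.3 and 273 CPM against 189, 174 and 218 CPM (chr2:152847964-152895321). Null replicate 3 and wild-type replicate 1 overlapped (log2 0.44, SE 0.12, edgeR adjusted p = 0.0401). *Hmmr*, which encodes a spindle pole protein, had the largest value of the group but was not called (log2 0.62, SE 0.20, edgeR adjusted p = 0.0715), with 35.3 CPM in wild-type replicate 1 and 65.7 to 68.9 CPM in the other wild types. Without replicate 1 it was called (log2 0.80, edgeR adjusted p = 0.00058). DESeq2 called 4 of the 8 higher, against 10.7% of all tested genes, and added *Hmmr*, *Tacc3* and *Ckap5*. The last 2 encode partners on spindle microtubules. The lowest value was that of *Dlgap5*, a spindle protein also known as HURP (log2 -0.12, SE 0.11, edgeR adjusted p = 0.465). *Nusap1*, *Gtse1* and *Ckap2* were not called.

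Among the 4 cytokinesis transcripts, 1 was called higher and 0 lower, against 7.77% and 3.33% of all tested genes. The called transcript was *Ect2*, which encodes the RhoA activator that starts furrow ingression. It was counted at 67.0, 85.1, 80.1 and 79.1 CPM in wild-type testes compared with 57.0, 51.4 and 54.6 CPM in null testes (chr3:27097222-27153878). The groups were separate, with replicate 1 about midway (log2 0.52, SE 0.095, edgeR adjusted p = 0.0162). *Racgap1*, which encodes the centralspindlin subunit that recruits ECT2, had the lowest value, -0.0071 (SE 0.079, edgeR adjusted p = 0.962), with a mean of 121 ± 6.19 CPM (SD, n = 4) in wild type and 121 ± 7.70 CPM (SD, n = 3) in the null. The 95% interval of its log2 fold change was -0.18 to 0.17, and 11.3% of its 31-base words are shared with other genes. *Prc1* and *Anln* were not called.

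The chromosomal passenger complex had 0 of 5 members called higher, by edgeR or by DESeq2, and 1 called lower. By edgeR, 7.77% of all tested genes were called higher and 3.33% lower. The median log2 fold change of the 5 members was -0.33. At an unadjusted p under 0.05, 2 had higher and 1 had lower wild-type values, where the all-gene shares were 17.4% and 12.9%. *Aurkb*, which encodes the Aurora B kinase that corrects faulty attachments, was counted at 5.85, 4.96, 3.99 and 6.51 CPM in the wild-type libraries, and at 8.76, 9.06 and 8.92 CPM in the null ones (chr11:69045647-69051664). All wild-type libraries were below all null ones, on 59 to 164 counts per library (log2 -0.74, SE 0.18, edgeR adjusted p = 0.0304). *Birc5*, which encodes survivin, had the largest positive value but was not called (log2 0.45, SE 0.20, edgeR adjusted p = 0.156). Without wild-type replicate 1 it was called higher (log2 0.62, edgeR adjusted p = 0.0047), as was *Cdca8*, which encodes borealin and was not called with all libraries. *Incenp*, which encodes the scaffold of the complex, was not called. *Aurkc*, the germline paralog of *Aurkb*, was the least abundant of the 49 per length (1.25 ± 0.950 TPM in wild type, SD, n = 4; 2.22 ± 0.809 TPM in the null, SD, n = 3) and held 2 to 31 estimated counts per library. It was not called, and 67.8% of its 31-base words are shared with other genes.

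None of the 9 mitotic entry transcripts was called by edgeR, and the median log2 fold change was -0.12. At an unadjusted p under 0.05, 0 had higher and 3 had lower wild-type values, where the all-gene shares were 17.4% and 12.9%, and DESeq2 called 1 lower, *Cdc25c*. *Plk1*, which encodes Polo-like kinase 1, had the lowest value (log2 -0.61, SE 0.25, edgeR adjusted p = 0.131). It was counted at 3.64, 3.35, 4.999 and 2.32 CPM (wild type) as against 5.07, 6.23 and 5.005 CPM (null), on 46 to 95 counts per library, and 15.2% of its 31-base words are shared. Wild-type replicate 3 lay just below the lowest null library. *Nek2*, a centrosome kinase, had the largest value (log2 0.17, SE 0.088, edgeR adjusted p = 0.221; -0.080 on log2(TPM + 1)). *Cdc25c*, a phosphatase that activates CDK1, was just outside the threshold (log2 -0.58, SE 0.16, edgeR adjusted p = 0.0503). It was called lower in 9 of 17 alternative fits, among them those with RLE size factors, on TPM and without wild-type replicate 1. *Cdk1* itself, its subunits *Cks1b* and *Cks2*, and *Cdc25b*, *Aurka* and *Melk* were not called.

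None of the 5 transcripts of the anaphase-promoting complex and separase was called by edgeR or DESeq2, and none had an unadjusted p under 0.05; the median was -0.11. *Cdc20*, which encodes the activator of the complex at metaphase, was counted at 24.1, 16.5, 16.0 and 15.5 CPM in the wild types, whereas the null libraries held 22.1, 22.3 and 18.7 CPM. Replicate 1 was the highest of all 7 libraries, above the null, while the other wild types were below it (log2 -0.22, SE 0.16, edgeR adjusted p = 0.382). Without that library *Cdc20* was called lower (log2 -0.39, edgeR adjusted p = 0.0483), and 27.4% of its 31-base words are shared with other genes. *Espl1*, which encodes separase, had the largest value (log2 0.22, SE 0.18, edgeR adjusted p = 0.441; -0.016 on log2(TPM + 1)). *Fzr1*, the later activator, *Ube2c*, a ubiquitin-conjugating enzyme, and *Pttg1*, which encodes securin, were not called.

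For 3 pairs of members that share a role, the ratio of TPM within a library was compared by a two-sided exact permutation of the sample labels, whose 35 arrangements allow no p under 0.0286. The ratio of *Aurkc* to *Aurkb* was 0.295 ± 0.197 in wild type (SD, n = 4) and 0.286 ± 0.0875 in the null (SD, n = 3), with an exact p of 0.8286. The ratio of *Cks2* to *Cks1b* was 1.31 ± 0.237 and 1.31 ± 0.0862, with an exact p of 0.943. The ratio of *Fzr1* to *Cdc20* was 0.711 ± 0.0966 and 0.711 ± 0.0406, with an exact p of 0.914. None passed the threshold, and the adjusted exact p was 0.943 for each. With 3 ratios adjusted together, a single ratio at the smallest exact p of 0.0286 could not have passed on its own.

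Wild-type replicate 1 stood apart from the other wild types for many of these genes. On the log2 scale, with the null mean set to 0% and the mean of wild-type replicates 2 to 4 set to 100%, it lay at 7.89% to 74.8% for the 11 members called higher, with a median of 28.9%. *Cenpf* was at the lower end and *Smc4* at the upper. Over all 1059 genes called higher in wild type, the median position was 57.8%. The 49 members together took 0.391% of all counts in this library, 0.542% to 0.564% in the other wild types and 0.350% to 0.376% in the null.

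**Figure D4:**
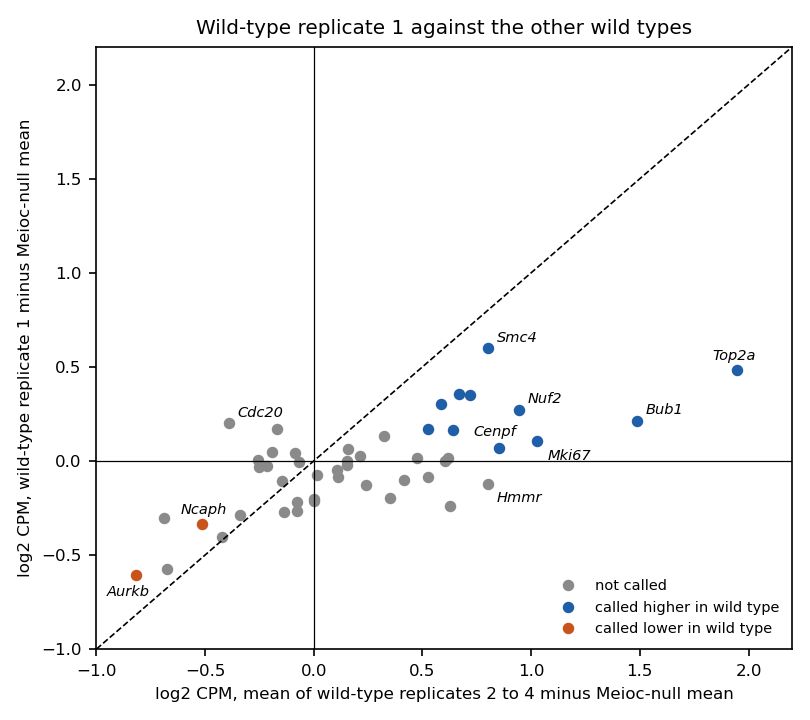
Difference from the *Meioc*-null mean in log2 CPM, for the mean of wild-type replicates 2 to 4 (x axis) and for wild-type replicate 1 (y axis), with 1 point per member and a dashed line where both would be equal; *Aurkc*, at 0.135 CPM in 1 library, is left out. All 11 members called higher, in blue, lie below the line, and *Cdc20* lies on opposite sides of 0 on the x and y axes.

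Cell-type markers were read beside these results, in TPM, where the all-gene median was lower in wild type. The germ cell markers *Ddx4* and *Dazl* summed to 1023 to 1138 TPM in wild type and to 895 to 915 TPM in the null, with replicate 1 of the wild types at 1127 TPM, and *Dazl* was called higher (log2 0.58). *Ddx4* was not called (log2 0.24, edgeR adjusted p = 0.0813), with means of 137 TPM in wild type and 140 TPM in the null. The 4 markers of undifferentiated spermatogonia summed to 29.0 to 40.05 TPM against 47.5 to 84.1 TPM, with *Zbtb16* called lower (log2 -0.86). *Id4*, *Gfra1* and *Etv5* were not called, at log2 values of 0.15, -0.14 and -0.47. Of the 2 markers of differentiating spermatogonia, with sums of 60.9 to 76.3 and 59.1 to 70.6 TPM, *Kit* was called higher (log2 0.55) and *Ccnd2* was not called, at a log2 value of -0.17. Of the 2 markers of later spermatocytes, with sums of 6.78 to 12.6 and 4.28 to 6.81 TPM, *Meiob* was called higher (log2 1.56). The other, *Piwil1*, was not called (log2 -0.70, edgeR adjusted p = 0.106), although its wild-type libraries all lay below the null ones. The Sertoli cell sum was 330.5 to 385 TPM in wild type and 396 to 439.7 TPM in the null, and the peritubular myoid sum was 303 to 345 and 366 to 398 TPM. The Leydig cell sum was 18.9 to 45.0 and 24.3 to 55.9 TPM, the endothelial marker was at 4.79 to 5.44 and 6.04 to 7.08 TPM, and the macrophage sum was 6.86 to 8.70 and 8.69 to 9.62 TPM. None of the 10 markers of Sertoli, Leydig, peritubular myoid, endothelial cells and macrophages was called. Their log2 values in edgeR ran from -0.45 for *Dlk1* to 0.20 for *Cyp11a1*. The Sertoli markers *Cldn11* and *Sox9* were at 0.0085 and -0.34, and the myoid markers *Acta2* and *Myh11* at 0.053 and -0.023. No marker was at 0 in any library. The part of cell composition in the member results was not tested.

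The other genes of the same machinery, 78 genes listed by function, had 15 called higher (19.2%) and 1 lower (1.28%) in wild type. The shares over all tested genes were 7.77% and 3.33%, and the median log2 fold change of the 78 was 0.14. Called higher were 4 of 14 outer kinetochore and checkpoint partners (*Knl1*, *Kntc1*, *Mad1l1* and *Ska2*), 3 of 14 inner centromere proteins (*Cenpl*, *Cenpm* and *Cenpq*), 1 of 3 condensin II subunits (*Ncapg2*) and 5 of 15 centrosome and spindle pole genes (*Cep55*, *Haus2*, *Haus5*, *Haus6* and *Haus8*). Of 16 subunits and regulators of the anaphase-promoting complex 1 was called higher, *Fbxo5*, and of 7 mitotic entry regulators 1, *Ensa*. None of the 6 MuvB, B-MYB and FOXM1 genes was called by edgeR or DESeq2, with 2 higher and 1 lower at an unadjusted p under 0.05 (17.4% and 12.9% of all genes).

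The largest of these differences was in *Haus8*, a subunit of augmin, which seeds microtubules within the spindle. It was counted at 40.6, 76.5, 87.1 and 94.1 CPM in wild-type testes compared with 34.4, 24.1 and 27.5 CPM in null testes (log2 1.38, SE 0.26, edgeR adjusted p = 0.0167). *Fbxo5*, which encodes the EMI1 inhibitor of the anaphase-promoting complex, was at 14.2, 28.7, 30.9 and 30.1 CPM against 13.9, 11.5 and 14.0 CPM (log2 0.98, SE 0.24, edgeR adjusted p = 0.0325). As with *Top2a*, the groups did not overlap but replicate 1 was next to the null. *Cenpm*, a protein of the inner centromere, was at 9.33, 13.1, 12.6 and 13.5 CPM against 8.49, 5.22 and 4.79 CPM (log2 0.97, SE 0.22, edgeR adjusted p = 0.0255). *Cdca5*, which encodes sororin, the protector of sister cohesion, was at 8.69, 9.50, 9.12 and 9.49 CPM against 11.4 to 13.3 CPM (log2 -0.45, SE 0.12, edgeR adjusted p = 0.0412). It was the 1 gene of this list called lower.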

How the data were processed

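Bulk RNA-seq of 7 testis samples, 4 wild-type and 3 *Meioc*-null, was grouped by the genotype in the labels. The authors made stranded, ribosomal RNA-depleted libraries, sequenced them as 50 bp single-end reads, trimmed them with cutadapt 1.8 and ran kallisto 0.44.0 with sequence-bias correction on GENCODE Basic vM15 transcripts (mm10). The deposited tables hold estimated counts for each protein-coding transcript, not normalized between libraries, and the authors' TPM, rescaled over protein-coding transcripts. TPM is blind to depth, since every library has 1 common total.

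Transcripts were matched to GENCODE vM21 genes on GRCm38 by Ensembl identifier, from which the coordinates come. Of 43139 transcripts 119 were unmatched, with 0.247% to 0.282% of a library's estimated counts, and were left out. Estimated counts were summed by gene, rounded and TMM-scaled, and the groups were compared by quasi-likelihood F-tests in edgeR 4.0.16 (R 4.3.3), without covariates, over the 13630 genes whose TPM reached 1 in 3 or more samples. Benjamini-Hochberg adjustment ran over all of them, and genes with adjusted p under 0.05 were called. The test was tried on simulated data. DESeq2 1.42.0, limma 3.58.1 on log2(TPM + 1) and log2(TPM + 0.1), other scalings and filters, a replicate block, and each library left out in turn were alternatives. The study tested its own gene sums with DESeq2 and the same filter. At these depths 3 counts equal 0.146 to 0.240 CPM, a limit that covers counting error only. Each library came from a different pup, and no 2 agreed within sampling noise.

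Members and lists were chosen with earlier results of these data known. Members called, and the highest and lowest log2 fold change of each function group, were named with values, together with at most 3 called genes in each direction of the wider list; *Cdc25c*, *Smc2*, *Ncapd2*, *Cenpe*, *Aurkc* and the partner-subunit ratios are exceptions to the rule, picked once their values had been seen. Shared sequence is the share of a gene's 31-base words, over its GENCODE transcripts, found in another gene's. Promoter sequence came from RefSeq, and motifs were counted on both strands.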

Additional observations from a re-analysis of the deposited data

Results flagged for a closer look

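In the 4 wild-type libraries, 1 library lay far from the other 3 by Dixon's gap, at the 95% level, for 5 of 28 genes tested, those named by the fixed rule and *Meioc*. In each case it was wild-type replicate 1. Chance flags about 1 in 20 groups of this kind, and the genes are not independent of each other. *Top2a* was at 393 CPM in replicate 1 and at 1033 to 1129 CPM in the others. *Cenpf* was at 301 CPM against 503 to 537 CPM. *Hmmr* was at 35.3 CPM against 65.7 to 68.9 CPM, and *Fbxo5* was at 14.2 CPM against 28.7 to 30.9 CPM. *Cdc20* went the other way, at 24.1 CPM against 15.5 to 16.5 CPM. *Fbxo5* is not a member. Over all 49 members 5 had such a gap, each in replicate 1: *Top2a*, *Cenpf*, *Hmmr*, *Cdc20* and *Prc1*. *Prc1* was at 34.3 CPM in replicate 1 against 48.2 to 50.5 CPM. Groups of 3 are not open to this test, so the *Meioc*-null libraries were not examined in this way. The germ cell marker sum of replicate 1, 1127 TPM, lay within the range of the other wild types, 1023 to 1138 TPM. Its sum for undifferentiated spermatogonia, 40.05 TPM, and that for Sertoli cells, 385 TPM, lay above those of the other wild types, 29.0 to 36.2 and 330.5 to 362 TPM, as did its macrophage sum (8.70 against 6.86 to 8.54 TPM). In CPM, its Sertoli cell markers lay within the other wild types. *Cldn11* was at 520 against 499 to 545 CPM and *Sox9* at 47.3 against 47.1 to 51.2 CPM. The macrophage markers *Cd14* and *Adgre1* also lay within them, and *Itgam* lay below them (4.27 against 4.69 to 5.20 CPM). *Zbtb16* and *Etv5* lay above the other wild types in CPM too, and *Id4* and *Gfra1* within them. The reason for the position of replicate 1 was not tested.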

How the results depend on the processing

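The 13 called members were called under DESeq2, with RLE size factors, without a TPM filter, with a TPM of at least 1 in all 7 samples and with the length trend removed, and 12 of them without scaling beyond library size. The number of other G2/M genes called lower, 1 in edgeR, was 3 under DESeq2, 2 with RLE size factors, 3 without scaling, 0 without a filter and 2 with the stricter filter. On log2(TPM + 1), 2 members were called higher and 8 lower, 7 other G2/M genes higher and 7 lower, and the members' median was -0.13. On log2(TPM + 0.1) these were 2, 6, 4 and 2, with a median of -0.13. With libraries centred, 3 members were called higher, 3 lower and 8 other G2/M genes higher. Leaving out 1 library gave 1 to 18 members called higher, 0 to 4 lower, 2 to 20 other G2/M genes higher and 0 to 2 lower.

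With the replicate number as a block, 0 members and 0 other G2/M genes were called in either direction by edgeR (at an unadjusted p under 0.05, 14 members higher and 3 lower, against 11.6% and 7.39% of all genes), and 109 of all 13630 genes were called. Wild-type replicate 4 shares its number with no null library and does not inform this fit. Same-numbered libraries did not deviate together (r = -0.01, -0.09 and -0.17), so the numbers were not taken as pairing.

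Of the members named by the fixed rule, *Espl1* and *Nek2* changed sign on TPM. Their values were -0.016 and -0.080 with a pseudocount of 1 and -0.015 and -0.084 with 0.1. *Cdk1*, *Mad2l1*, *Ttk*, *Ncapd2*, *Anln* and *Pttg1* also had positive log2 values in edgeR but a lower mean TPM in wild type than in the null. *Racgap1*, near 0, was 0.014 with the block, 0.0056 with the length trend removed and -0.040 to 0.046 without 1 library. The ratio differences, none called, ranged without 1 library from -0.67 to 0.35 for *Aurkc* to *Aurkb*, -0.12 to 0.094 for *Cks2* to *Cks1b* and -0.084 to 0.076 for *Fzr1* to *Cdc20*, which was 0.045 from estimated counts. Among named genes, 137 single results lost their call, 9 gained one and 322 kept direction and side of the threshold. The cause was not tested.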

Other observations

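Per length, the members spanned a wide range. *Smc4*, *Top2a* and *Ckap5*, a microtubule polymerase, were the most abundant, at means of 295, 225 and 149.9 TPM over the 7 libraries, and *Cdc25b*, *Plk1* and *Aurkc* the least, at 4.45, 2.697 and 1.67 TPM. *Top2a* alone took 0.0398% of all counts in wild-type replicate 1, 0.0994% to 0.109% in the other wild types and 0.0237% to 0.0355% in the null. The TPM ratio of *Top2a* to *Mki67*, chosen after the values were seen and not tested, was 2.77 to 4.16 in wild type and 1.94 to 2.47 in the null.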
